A study of Mus musculus with 21 samples.

Results

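The genes described here are 10 that encode chaperones and folding enzymes of the endoplasmic reticulum (ER), with 1 of the transcription factors that control them: Hspa5, Hsp90b1, Calr, Canx, Pdia3, Pdia4, Pdia6, P4hb, Ppib and Xbp1. They were chosen by symbol from the 35598 genes of the deposited tables, all 10 were found, and all 10 were among the 13898 genes that passed the filter on low counts. Levels were measured by 3′ tag sequencing (QuantSeq FWD, which reads the end of polyadenylated transcripts) in glomeruli that had been laser-microdissected from the kidneys of 21 mice, all female and 3 months old, with each library made from 1 mouse. The mice named cKO carried floxed Epac1 alleles (Epac1fl/fl) and a Cre transgene that deletes Epac1 in podocytes, the filtration cells of the glomerulus, and the mice named flox were Epac1fl/fl littermates without Cre. Glomerulonephritis was induced by intravenous decomplemented nephrotoxic serum (NTS) on 2 consecutive days, and kidneys were taken at the early stage (day 4) or the later stage (day 11). Control mice received PBS. There were 3 cKO PBS, 4 cKO day 4, 4 cKO day 11, 3 flox PBS, 3 flox day 4 and 4 flox day 11 libraries. All groups share the floxed alleles, and the deletion is limited to podocytes while the RNA comes from whole glomeruli.

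Secreted and membrane proteins fold in the ER. Hspa5 (BiP) is its Hsp70 chaperone and Hsp90b1 (GRP94) its Hsp90 chaperone, the lectins Calr and Canx hold glycoproteins together with the disulfide isomerase Pdia3, and Pdia4, Pdia6 and P4hb form and rearrange disulfide bonds. P4hb is also a subunit of collagen prolyl 4-hydroxylase, and Ppib, a prolyl isomerase, works on the same collagen chains, which makes both relevant to cells that lay down basement membrane. When unfolded proteins accumulate, the unfolded protein response raises chaperone transcription through ATF6 and XBP1, which act at promoter elements known as ER stress response elements (ERSE). Active XBP1 arises from splicing of its mRNA, which 3′ tags do not resolve.

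The ERSE letters were present upstream of 5 of the 10 genes, and they are shown because they separate the promoters of the set. The promoter windows ran from 250 bases before to 50 bases after the annotated start of transcription (RefSeq, GRCm38.p6), and all 10 genes had a window. The ERSE was searched as CCAAT and CCACG with 9 bases of any kind between them, on both strands, and it contains the shorter CCAAT box. It was found in Hspa5, Hsp90b1, Calr, Canx and Pdia6, and in 39 of 32851 windows of the same length (0.119%). Each sequence below is read on the strand that carries the letters, in capitals, with 10 bases on either side. The last line shows the core of another unfolded protein response element (UPRE), TGACGTG, which was searched on both strands too and does not overlap the ERSE of Hspa5.
Hspa5 ERSE, chr2:34772015-34772053, gene on the plus strand, letters on the same strand: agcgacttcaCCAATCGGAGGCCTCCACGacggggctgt
Hsp90b1 ERSE, chr10:86705628-86705666, gene on the minus strand, letters on the same strand: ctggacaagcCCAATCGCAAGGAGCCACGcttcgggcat
Hsp90b1 ERSE, chr10:86705523-86705561, gene on the minus strand, letters on the opposite strand: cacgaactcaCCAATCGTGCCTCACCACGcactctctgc
Calr ERSE, chr8:84847065-84847103, gene on the minus strand, letters on the opposite strand: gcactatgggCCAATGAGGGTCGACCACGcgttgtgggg
Canx ERSE, chr11:50325790-50325828, gene on the minus strand, letters on the same strand: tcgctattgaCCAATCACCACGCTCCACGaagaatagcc
Pdia6 ERSE, chr12:17266481-17266519, gene on the plus strand, letters on the same strand: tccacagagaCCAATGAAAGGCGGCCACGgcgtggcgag
Hspa5 UPRE core, chr2:34771923-34771949, gene on the plus strand, letters on the same strand: ggcgtagcaaTGACGTGagttgcggag

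The UPRE core was found in 1 of the 10 windows, against 2.01% of all windows. A second form of the element, ERSE-II (ATTGG, 1 base of any kind, then CCACG, on both strands), was in 0 of the 10 and in 0.0365% of all windows. The CCAAT box alone was in 9 of the 10, all but Xbp1, against 37.4% of all windows. Measured along the gene, whichever strand carries the letters, the ERSE of Hspa5 begins 65 bases before the annotated start, and those of the other genes begin between 98 and 212 bases before it. A match describes these letters only, and the absence of a match says nothing of the factors that bind elsewhere.

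**Figure D1:**
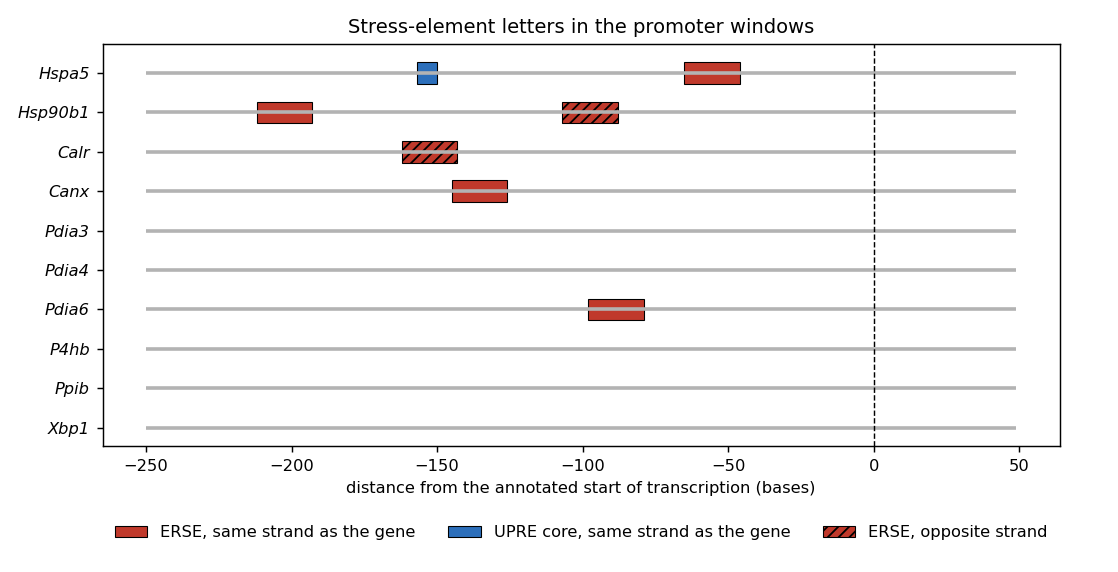
Position of the ERSE letters (red) and the UPRE core (blue) in the promoter windows of the 10 genes, in bases from the annotated start of transcription (dashed line). Hatched boxes lie on the strand opposite to the gene; 5 genes carry an ERSE, Hsp90b1 carries 2, and the other 5 windows are empty.

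Library totals ran from 4550550 to 24295712 reads (median 19470098), and 7871 to 13006 genes were detected per library. Reads in a single ribosomal RNA gene, CT010467.1, took 14.9% to 39.5% of a library. Markers of the glomerulus were present: all 9 podocyte and all 10 glomerular endothelium markers had reads in all 21 libraries. Rapgef3, which encodes Epac1, averaged 141 ± 44.9 CPM (counts scaled to library size, with trimmed-mean factors) in cKO libraries (SD, n = 11) and 220.1 ± 78.6 CPM in flox libraries (SD, n = 10); 3′ tags may lie outside the deleted part and other glomerular cells keep the gene, so this does not check the labels. Day 4 replicate 3 of the cKO mice had the fewest genes detected and day 11 replicate 3 of the cKO mice the fewest reads. Ppib overlaps the antisense gene Snx22 (1732 reads over all libraries, against 20113 of Ppib), Pdia6 overlaps the antisense gene Atp6v1c2 (6073 against 38892), and Hsp90b1 is overlapped by 3 other annotated genes. Because the strand setting of the counting is not given in the sources used here, reads of such partners cannot be told apart.

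None of the 10 genes passed the test for a change after adjustment for all genes tested. In edgeR's quasi-likelihood test with Benjamini-Hochberg adjustment at 0.05, 0 of 10 were called in each of 14 comparisons, and 0 were called by limma voom or by DESeq2. The share of all 13898 genes called was 0.122% for day 11 against PBS averaged over genotypes, 0.0216% for day 4 against PBS, and 0.0072% for cKO against flox averaged over stages. It was 0.0504% for day 11 against PBS in cKO mice and 0% in the other 10 comparisons, which were the remaining contrasts of single groups and the interactions. By DESeq2, which also called 0 of the 10, between 495 and 1256 of all genes were called in a comparison, 1164 of them for averaged day 11. At an unadjusted p under 0.05, Calr was the only one of the 10 in the averaged day 11 comparison, where 6.17% of all genes reached that level with a higher value and 2.94% with a lower one. None of the 10 reached it in the averaged day 4 comparison (5.36% of all genes higher, 3.92% lower) or the averaged genotype comparison (3.95% higher, 2.67% lower).

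The fitted changes were small for the abundant members and poorly bounded for the others. Between day 11 and PBS, averaged over genotypes, the median log2 fold change of the 10 genes was 0.17, against 0.07 over all genes tested, and 6 of 10 lay above 0, beside 52.9% of all genes. At day 4 the median was 0.18, against 0.01 over all genes, and 7 of 10 lay above 0, beside 50.5% of all genes. Between cKO and flox the median was 0.17, against 0.01 over all genes, and 9 of 10 lay above 0, all but Canx, beside 50.7% of all genes. With 1 library left out Calr, Pdia6 or P4hb could turn negative in this comparison, as did Ppib with the replicate number as a block. For 6 of the 10 genes the 95% interval of the day 11 change lay within 2-fold in either direction, which held for 6.59% of all genes tested. For the genotype difference this held for 7 of the 10 genes and for 11.3% of all genes. The members outside it, Pdia4, Ppib and Xbp1 in the genotype comparison, could have differed by more than 2-fold without the test showing it.

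**Figure D2:**
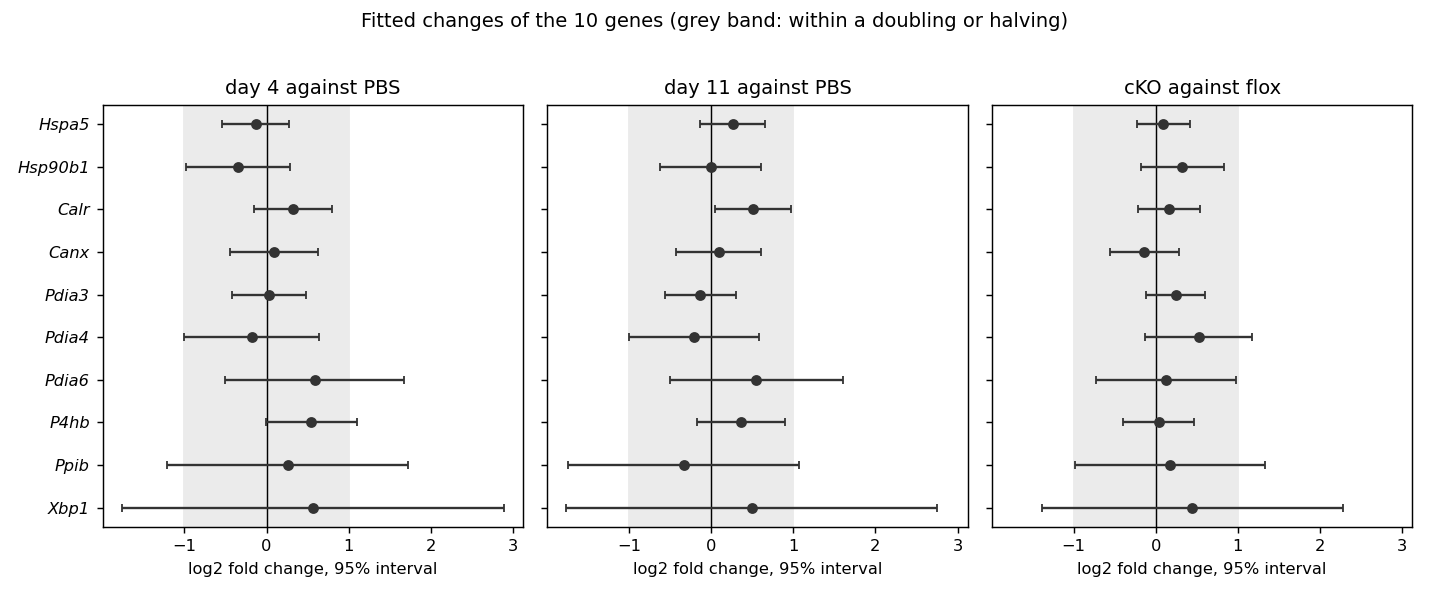
Log2 fold change of each of the 10 genes (points) with its 95% interval (bars) for day 4 against PBS and day 11 against PBS, averaged over genotypes, and for cKO against flox, averaged over stages. The grey band marks changes of less than 2-fold; the intervals of Hspa5, Hsp90b1, Calr, Canx and Pdia3 stay inside it in all 3 comparisons and those of Ppib and Xbp1 leave it.

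**Figure D3:**
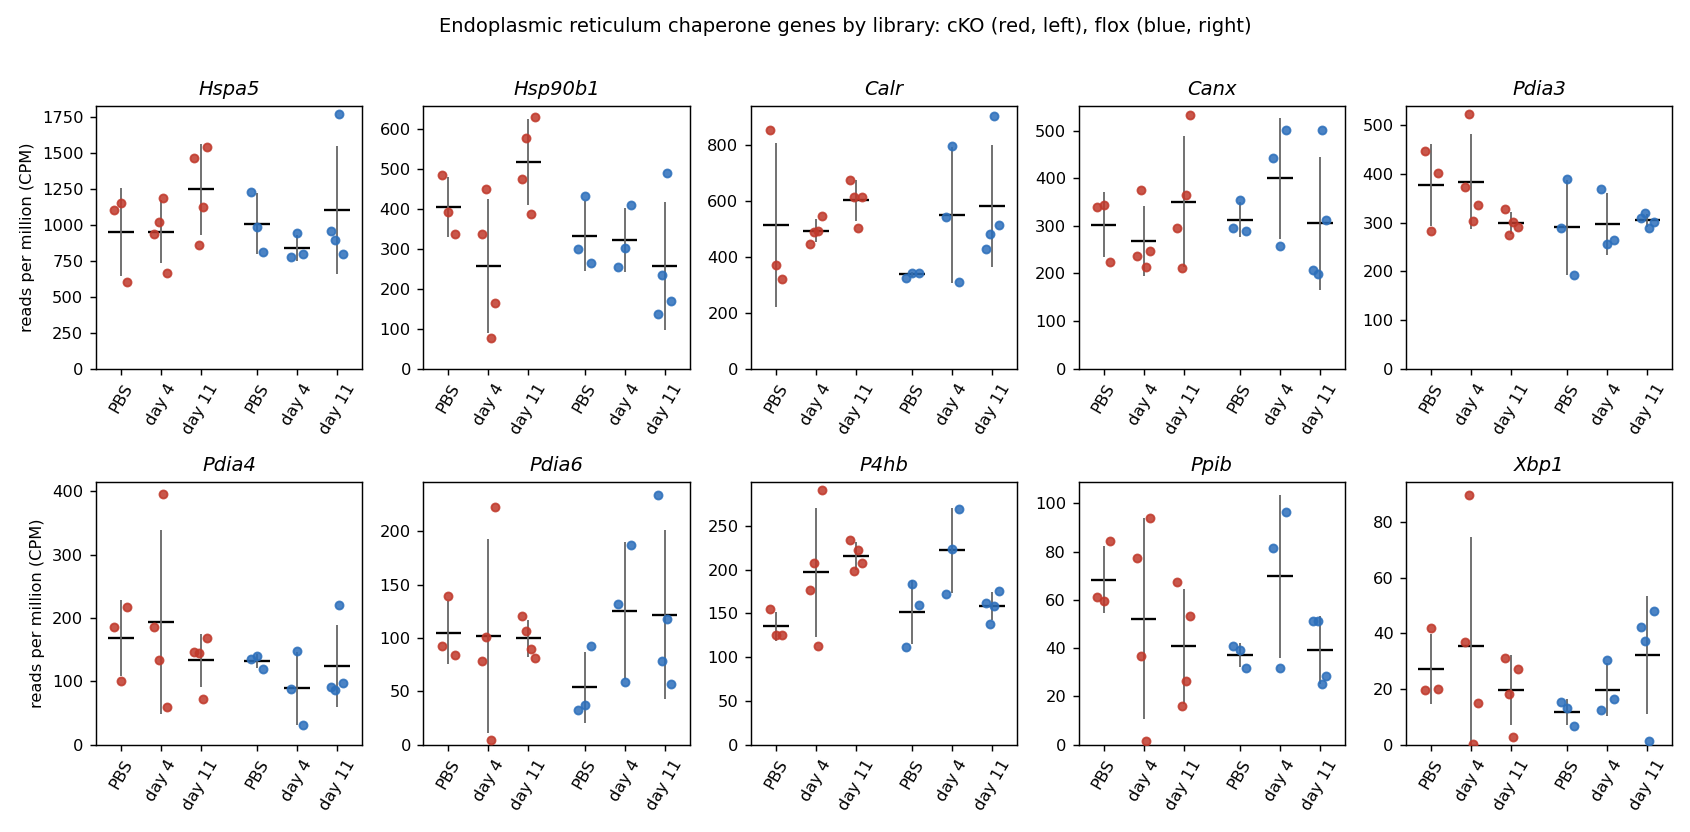
Level of each gene in each of the 21 libraries in CPM (linear axes from 0), with cKO libraries in red and flox libraries in blue. Each point is 1 mouse, horizontal lines are group means and vertical lines run 1 SD either way, ending at 0 where the SD exceeds the mean.

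Hspa5, the central chaperone and the usual readout of the unfolded protein response, had overlapping levels in all groups. In cKO mice it stood at 1101, 1153 and 599 CPM under PBS, at 938, 1017, 1187 and 663 CPM at day 4, and at 1464, 857, 1122 and 1541 CPM at day 11. In flox mice it stood at 1229, 988 and 808 CPM under PBS, at 777, 945 and 795 CPM at day 4, and at 958, 891, 1767 and 797 CPM at day 11. The highest library, flox day 11 replicate 3, lay far above the other 3 of its group. The log2 fold change at day 11 was 0.39 ± 0.28 (SE) in cKO mice and 0.13 ± 0.27 in flox mice, and averaged over genotypes it was 0.26 ± 0.19 (adjusted p = 0.90), with a 95% interval of 0.91-fold to 1.58-fold. Without flox day 11 replicate 3 the flox change was −0.18.

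Hsp90b1, which folds a narrower set of clients such as integrins and Toll-like receptors, separated the genotypes most at day 11. It stood at 475, 578, 387 and 630.1 CPM in cKO mice at day 11, against 136, 233, 491 and 170.1 CPM in flox mice at day 11. Only flox day 11 replicate 3 reached into the cKO range, and the other 3 flox libraries lay below every cKO library. The log2 fold change was 1.01 ± 0.40 (adjusted p = 0.84). Its unadjusted p was under 0.05, as for 2.73% of all genes with a higher value in this comparison. Over the fits with 1 library left out it ran from 0.80 to 1.499, highest without flox day 11 replicate 3, and was not called.
Within cKO mice the day 4 values averaged lower, at 338, 449, 76.9 and 165 CPM. The value of 76.9 CPM came from cKO day 4 replicate 3, the library with the fewest genes detected. Day 11 against day 4 gave 1.01 ± 0.40 (adjusted p = 0.47), with an unadjusted p under 0.05, as for 6.55% of all genes with a higher value. With 1 library left out this change ran from 0.71 to 1.42, with an unadjusted p in edgeR from 0.0020 to 0.070. Under PBS Hsp90b1 ran from 337 to 484 CPM in cKO mice and from 265 to 432 CPM in flox mice. The fitted difference of day 11 from PBS was 0.36 ± 0.43 in cKO mice and −0.37 ± 0.43 in flox mice. The interaction of genotype and nephritis at day 11 was 0.72 ± 0.60 (adjusted p = 1). The ribosomal RNA share ran from 22.2% to 39.5% in the cKO day 11 libraries and was 20.6%, 15.4%, 30.1% and 15.7% in the flox day 11 libraries, where the library of 30.1% was also the one high in Hsp90b1; the part of this share in the difference was not tested.

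Calr, the soluble lectin that also stores calcium, had the lowest p of the 10 genes in the averaged day 11 comparison. In flox mice it stood at 325, 342 and 343 CPM under PBS, at 543, 796 and 309.7 CPM at day 4, and at 427, 483, 905 and 514 CPM at day 11. Every flox day 11 library lay above every flox PBS library, as did 3.86% of all genes tested, while 1 flox day 4 library lay below them. In flox mice the day 4 log2 fold change was 0.71 ± 0.34 (adjusted p = 0.59). The day 11 value was 0.79 ± 0.33 (adjusted p = 0.58), and these comparisons share the 3 PBS libraries. With 1 library left out they ran from 0.33 (without flox day 4 replicate 2) to 0.97 at day 4 and from 0.51 (without flox day 11 replicate 3) to 0.91 at day 11. Both unadjusted p values were under 0.05, as for 5.55% of all genes with a higher value at day 4 and 5.9% at day 11.
In cKO mice Calr stood at 853, 370.3 and 319 CPM under PBS, at 447, 488, 491 and 547 CPM at day 4, and at 676, 612, 503 and 614 CPM at day 11. The day 4 and day 11 libraries all exceeded 2 of the 3 PBS libraries and all lay below the other. The day 11 change in cKO mice was 0.23 ± 0.32. With 1 library left out it ran from −0.016 (without cKO PBS replicate 3) to 0.80 (without cKO PBS replicate 1) and was not called. Averaged over genotypes the day 11 change was 0.51 ± 0.23 (adjusted p = 0.49), a fold of 1.42 with a 95% interval of 1.03 to 1.96. With 1 library left out the log2 value ran from 0.37 to 0.80, highest without cKO PBS replicate 1. Its unadjusted p in edgeR ran from 0.0013 to 0.11 over these fits, so it did not stay under 0.05 in all of them.

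Canx, the membrane-bound lectin, and Pdia3, which works with both lectins, did not separate the groups. Canx averaged 302 ± 68.1, 268 ± 73.0 and 351 ± 137 CPM in cKO mice under PBS, at day 4 and at day 11, and 312 ± 36.5, 400.1 ± 127 and 305 ± 141 CPM in flox mice (SD, n = 3 or 4). Its averaged day 11 change was 0.09 ± 0.25. Pdia3 had 328, 274, 302 and 291 CPM in cKO mice at day 11, against 447, 283 and 401 CPM in cKO mice under PBS, and 309, 319, 289 and 300.1 CPM in flox mice at day 11, against 288, 389 and 193 CPM in flox mice under PBS. The 8 day 11 libraries sat close together while the PBS libraries of both genotypes spread around them. The day 11 change was −0.33 ± 0.30 in cKO mice and 0.07 ± 0.30 in flox mice, and their difference was −0.40 ± 0.42 (adjusted p = 1).

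P4hb, the isomerase that doubles as a collagen hydroxylase subunit, passed no test, and its fitted day 11 value was higher in cKO than in flox mice, a difference that did not pass either. In cKO mice it stood at 154.8, 126 and 125 CPM under PBS, at 176, 207, 113 and 291 CPM at day 4, and at 234, 198, 223 and 207 CPM at day 11. All 4 day 11 libraries lay above all 3 PBS libraries, as did 2.75% of all genes tested, and the log2 fold change was 0.67 ± 0.38 (adjusted p = 0.87). In flox mice P4hb stood at 112, 184 and 159 CPM under PBS, at 172, 224 and 269.6 CPM at day 4, and at 162.5, 138, 158 and 176 CPM at day 11, with a day 11 log2 fold change of 0.06 ± 0.37 that ran from −0.12 to 0.23 with 1 library left out. Every cKO day 11 library was above every flox day 11 library, as for 1.23% of all genes, with a log2 fold change of 0.44 ± 0.34 (adjusted p = 1). Averaged over genotypes, P4hb had a log2 fold change of 0.54 ± 0.27 at day 4 (adjusted p = 0.55) and of 0.37 ± 0.26 at day 11.
The same libraries also differed in cell markers. The 9 podocyte markers summed to 3276 to 6038 CPM in cKO day 11 libraries, against 7447 to 7803 CPM in cKO PBS libraries, and the 13 macrophage markers summed to 486 to 1332 CPM, against 319 to 449 CPM. The mesangial and smooth muscle markers, which include Ren1, had 2219 to 3804 CPM, against 1890 to 2273 CPM. Erythrocyte markers had 482 to 2046 CPM, against 2013 to 18285 CPM. Both ranges, and those of proximal tubule, glomerular endothelium and plasma cell markers, overlapped between the groups. Over the 21 libraries the Spearman rho of P4hb was −0.07 with podocyte and 0.29 with macrophage markers. The part of these cells in the values of P4hb was not tested, and in bulk RNA fewer cells of a type and less RNA per cell cannot be told apart.

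The other isomerases varied widely between mice of a group. Pdia4 stood at 186, 133, 396 and 58.9 CPM in cKO mice at day 4, against 88.5, 147 and 31.5 CPM in flox mice at day 4; the groups overlapped, and the highest value came from cKO day 4 replicate 3, the library with the fewest genes detected. The log2 fold change there was 1.12 ± 0.57 (adjusted p = 0.68), and it was 0.499 without cKO day 4 replicate 3 and 1.70 without flox day 4 replicate 2. Averaged over stages cKO against flox gave 0.53 ± 0.32 (adjusted p = 0.94). Pdia6 was at 32.8, 37.0 and 92.2 CPM in flox mice under PBS, at 132, 58.8 and 187 CPM in flox mice at day 4, and at 234.6, 78.6, 118 and 57.3 CPM in flox mice at day 11. Of the PBS libraries only replicate 3 reached the nephritic range, and the changes of 1.22 ± 0.78 at day 4 and 1.18 ± 0.75 at day 11 had adjusted p values of 0.75 and 0.71. With 1 library left out they ran from 0.80 (without flox day 4 replicate 3) to 1.84 at day 4 and from 0.65 (without flox day 11 replicate 1) to 1.81 at day 11, both highest without flox PBS replicate 3. In cKO mice Pdia6 averaged 105 ± 29.6, 102 ± 90.8 and 99.6 ± 17.4 CPM under PBS, at day 4 and at day 11 (SD, n = 3, 4 and 4).

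Ppib and Xbp1 rested on the fewest reads. Ppib stood at 61.2, 59.5 and 84.3 CPM in cKO mice under PBS, against 41.0, 39.2 and 31.7 CPM in flox mice under PBS. Xbp1 stood at 19.8, 41.9 and 19.9 CPM in cKO mice under PBS, against 15.4, 13.4 and 6.62 CPM in flox mice under PBS. For both genes every cKO PBS library was above every flox PBS library, as for 7.27% of all genes tested, and neither difference passed the test (0.87 ± 1.06 and 1.20 ± 1.68, both with an adjusted p of 1). After nephritis the genotypes overlapped in both genes. Ppib ran from 1.38 to 93.8 CPM in cKO libraries and from 31.9 to 96.3 CPM in flox libraries at day 4, and from 16.1 to 67.5 CPM in cKO libraries and from 25.2 to 51.4 CPM in flox libraries at day 11. Xbp1 was lowest at 0.15 CPM, or 2 reads, in cKO day 4 replicate 3, at 1.25 CPM in flox day 11 replicate 3 and at 2.69 CPM in cKO day 11 replicate 3, while the other 18 libraries held between 6.62 and 89.7 CPM. Its 95% interval at day 11, averaged over genotypes, ran from 0.29-fold to 6.73-fold.

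Members differed in how far mice of a group lay apart. The SD between libraries of a group, on the log2 scale, was 0.30 for Pdia3 and 0.33 for P4hb, and 2.76% of 326 genes and 0.803% of 623 genes of like mean level had a smaller one. It was 0.40 for Hspa5, 0.44 for Calr and 0.47 for Canx, in the middle of genes of like level. Hsp90b1, at 0.67, exceeded 89.5% of 332 genes of like level. Pdia4 had 0.79, Pdia6 1.27, Ppib 1.38 and Xbp1 2.16, and these 4 stood on lower levels, where all genes spread more. Against genes of like level, Pdia6 exceeded 79.7% of 1101 and Pdia4 64.7% of 869. Ppib exceeded 40.1% of 1468 and Xbp1 29.2% of 1396.

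**Figure D4:**
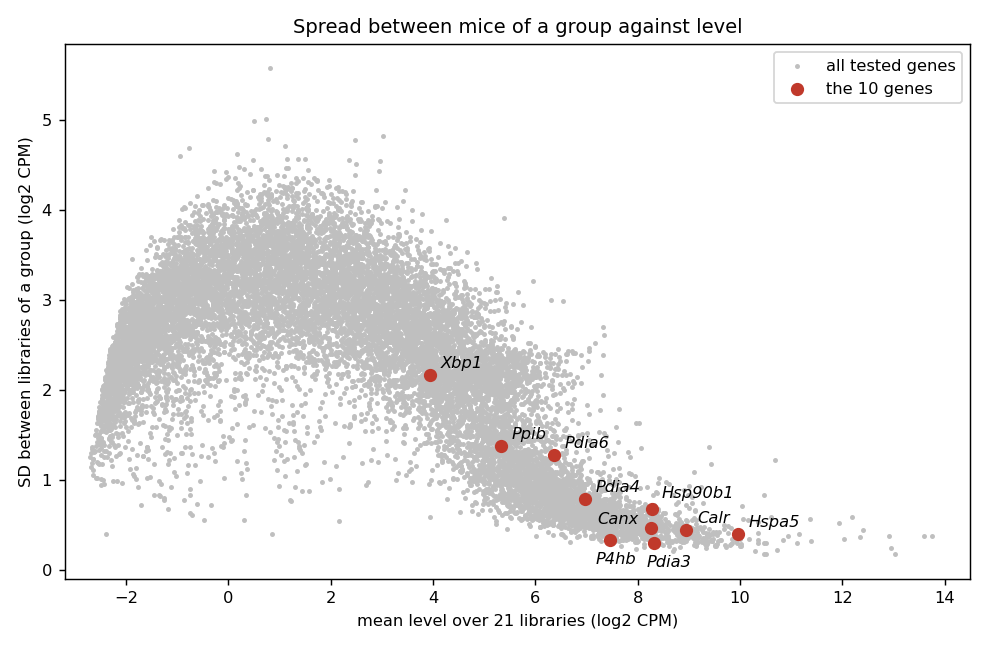
SD between libraries of a group (log2 CPM) against mean level over 21 libraries (log2 CPM) for all tested genes (grey) and the 10 genes (red). Pdia3 and P4hb lie on the lower edge of the cloud at 0.30 and 0.33, and Hsp90b1 lies above most genes of its level at 0.67.

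Pairs of the 10 genes differed in how their levels were related. Over the 45 pairs of members, the median Spearman rho of log2 CPM across the 21 libraries was 0.11, from −0.42 for Pdia4 with Pdia6 to 0.54 for Hsp90b1 with Canx, and 27 pairs lay above 0. After group means were removed the median Pearson r was 0.18, from −0.67 for Pdia4 with Pdia6 to 0.83 for Pdia6 with Ppib. It was also 0.70 for Ppib with Xbp1, 0.70 for Pdia6 with P4hb and 0.61 for P4hb with Ppib. The Spearman rho of these pairs, with group means kept, was lower, at 0.23, 0.35 and 0.20, and it was 0.44 for Pdia6 with Ppib. The lowest values of Hsp90b1, Pdia6, Ppib and Xbp1 all came from cKO day 4 replicate 3. Between the 2090 tested genes at a mean of at least 6 log2 CPM the median rho was 0.0013. Ppib and Xbp1, with means of 5.33 and 3.95 log2 CPM, lay below that level. The rho and r values share libraries and scaling and are descriptions. Of 2048 genes searched, Hspa5 was most like Col4a3, a glomerular basement membrane collagen chain (rho 0.71), Nipbl (0.66), the cytosolic chaperone Hsp90ab1 (0.64), Slc43a3 (0.60) and Afap1 (0.58). Ppib was most like Copa, a coat protein of vesicles that return to the ER (0.65), Cdc42 (0.65), Gsn (0.63) and Idh3g (0.62). After group means were removed r was 0.23 for Copa, 0.51 for Cdc42, 0.26 for Gsn and 0.20 for Idh3g. For the genes like Hspa5 it ran from 0.46 for Slc43a3 to 0.72 for Nipbl. All are the highest rho values of a wide search, and the height that unrelated genes would reach was not computed.

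Summed over the 10 genes, of which Hspa5 made up 24.9% to 44.3%, the level was 3052 ± 665 CPM under PBS, 2934 ± 340.3 CPM at day 4 and 3523 ± 557 CPM at day 11 in cKO mice (SD, n = 3, 4 and 4). In flox mice it was 2666 ± 320.1 CPM under PBS, 2934 ± 99.7 CPM at day 4 and 3029 ± 967 CPM at day 11 (SD, n = 3, 3 and 4). The sum ran from 2306 to 4477 CPM over the libraries, lowest in flox PBS replicate 3. Across the 21 libraries the sum had a Spearman rho of 0.65 with the ribosomal RNA share. Among the members it was 0.61 for Hsp90b1, 0.56 for Hspa5, 0.53 for Calr, 0.32 for Canx and 0.29 for Pdia4. It was 0.14 for P4hb, 0.03 for Pdia6, −0.25 for Pdia3, −0.30 for Xbp1 and −0.38 for Ppib. With total reads the sum had a rho of −0.36, and the members ran from −0.57 for Hspa5 to 0.45 for Ppib. With the number of genes detected the sum had a rho of −0.03. The rho of the sum was 0.39 with the summed macrophage markers, 0.39 with the plasma cell markers and −0.30 with the podocyte markers. It was −0.36 with the erythrocyte markers and −0.27 with the proximal tubule markers. With the glomerular endothelium markers it was 0.03, and with the mesangial and smooth muscle markers −0.02. Plasma cells are rich in these chaperones, and of 9 plasma cell markers Tnfrsf17 had reads in 0 libraries, Mzb1 in 1, Pou2af1 and Iglc2 in 2, Jchain in 3, Igkc and Ighm in 13, and Sdc1 and Prdm1, which other cells also express, in 21, while the list summed to 7.24 to 204.1 CPM; the part of these cells in the sum was not tested.

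**Figure D5:**
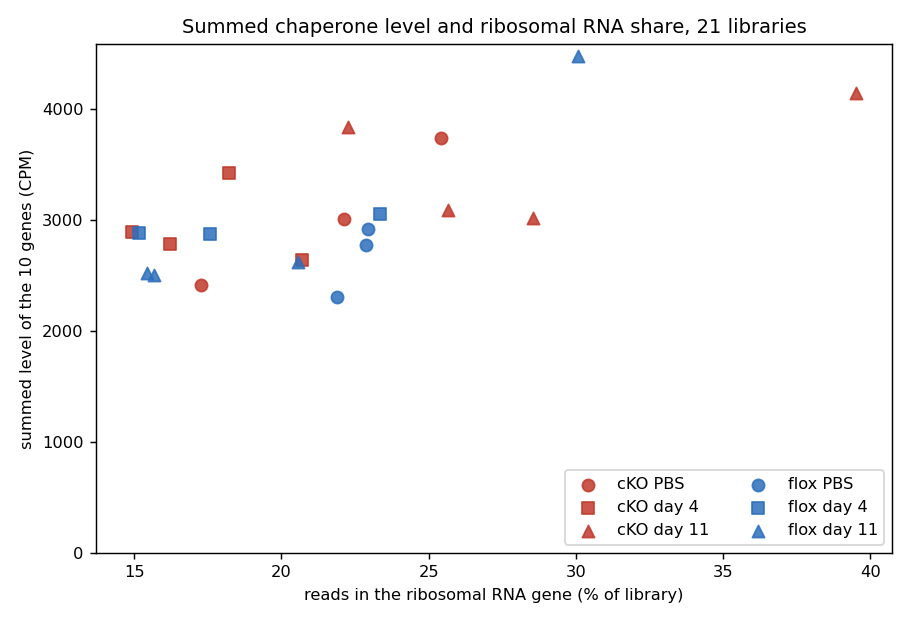
Summed level of the 10 genes (CPM) against the share of reads in the ribosomal RNA gene (%) for 21 libraries, with cKO in red, flox in blue and the stage by symbol. The highest sum, 4477 CPM in flox day 11 replicate 3, came with a share of 30.1%, and the next, 4148 CPM in cKO day 11 replicate 4, with the highest share of 39.5%.

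Genes with and without the ERSE letters printed above were set side by side at day 11 against PBS, averaged over genotypes. The 5 members with the letters had a median log2 fold change of 0.26 and the 5 without them −0.13. At day 4 the order was the other way, with 0.09 for the members with the letters and 0.26 for those without, as it was between cKO and flox, with 0.12 and 0.24. The letters were also found in 32 other genes, of which 13 were tested under the same symbol, with a day 11 median of −0.13 and 0 called. Ero1b, also among the 32, was tested under its older symbol Ero1lb and is not part of that count or median. Its day 11 value was higher, with an unadjusted p under 0.05 in edgeR, and it was not called. Among the 13 were Creld2, Dnajc3 and Syvn1, which encode ER proteins of the same pathway. Creld2 had a value of 4.97 ± 1.88 (adjusted p = 0.35). Dnajc3, a co-chaperone of Hspa5, had a value of −0.25 and Syvn1, a ubiquitin ligase of ER-associated degradation, of −0.13, both with an adjusted p of 1.

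The wider pathway was examined in 8 lists, and 0 of their genes were called in the 3 averaged comparisons. At day 11 against PBS the median log2 fold change was −0.03 for 12 sensors and transcription factors of the unfolded protein response, with 6 above 0, and 0.14 for 16 co-chaperones and induced lumenal proteins, with 10 above 0. It was −0.10 for 15 other oxidoreductases, 0.01 for 14 genes of glycoprotein quality control, 0.24 for 11 of ER-associated degradation and 0.17 for 22 of the translocon, signal peptidase and oligosaccharyltransferase. These medians stand against 0.07 over all genes tested. Of the 119 list genes tested, 5 had an unadjusted p under 0.05 with a higher value at day 11 (4.2%, against 6.17% of all genes), namely Creld2, Qsox1, Ero1lb, Plod2 and Atf3. Pdia5 alone had one with a lower value (0.84%, against 2.94% of all genes), and none of them passed the adjustment.

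Of 17 collagen-modifying enzymes and chaperones tested, 15 lay above 0 at day 4 with a median of 0.54 and 15 at day 11 with a median of 0.44, and 0 were called; both stages were set against the same PBS libraries. At day 11 the median was 0.06 in cKO mice, with 10 of 17 above 0, and 0.75 in flox mice, with 14 of 17 above 0. The difference of these medians was not tested. For cKO against flox the list's median was 0.83 under PBS and −0.12 at day 11. The interaction at day 11 was fitted for each gene, and 0 of the 17 were called. The 8 mesangial and smooth muscle markers summed to a median of 3441 CPM in day 11 libraries (1651 to 5516) and 2354 CPM in PBS libraries (1889.6 to 3628). Ren1, which encodes renin, weighs most in this sum, with a median of 1307 CPM over the libraries and a maximum of 4135 CPM. Acta2, the next highest of these markers, had a median of 378 CPM. The podocyte markers summed to a median of 5313 CPM in day 11 libraries (3276 to 7014) and 7544 CPM in PBS libraries (5581 to 7803). The part of podocytes and of mesangial and smooth muscle cells in the values of the collagen-modifying genes was not tested. Plod2, a lysyl hydroxylase of collagen, ran from 120.9 to 262.8 CPM (median 159) in the 8 day 11 libraries, against 42.2 to 127 CPM (median 100.2) in the 6 PBS libraries. The ranges met only at their ends, and the log2 fold change was 0.99 ± 0.35 (adjusted p = 0.34). P3h1, a prolyl hydroxylase that forms a complex with Ppib, averaged 93.8 ± 31.5 CPM at day 4 (SD, n = 7) and 35.3 ± 26.3 CPM under PBS (SD, n = 6), a change of 1.38 ± 0.62 (adjusted p = 0.49).

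Qsox1, a sulfhydryl oxidase that introduces disulfide bonds in the secretory pathway, had the lowest p of the oxidoreductases. It ran from 124 to 325 CPM (median 161.5) in the 8 day 11 libraries, against 35.5 to 135 CPM (median 76.3) in the 6 PBS libraries. Only the upper PBS values reached the day 11 range, and the log2 fold change was 1.28 ± 0.36 (adjusted p = 0.25). Hyou1, a nucleotide exchange factor of Hspa5, was at 34.0 ± 15.6 CPM at day 11 (SD, n = 8) and 64.0 ± 35.7 CPM under PBS (SD, n = 6), a change of −0.92 ± 0.64 (adjusted p = 0.83). Os9, a lectin of ER-associated degradation, had a log2 fold change of −0.32 ± 0.26 and Sel1l, a scaffold of the same process, of 0.41 ± 0.31. Atf4, the transcription factor of the integrated stress response, had 0.38 ± 0.30 (adjusted p = 0.92).

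Some stress-induced genes of low level had reads in part of the libraries, and these counts were not tested. Creld2, an ER stress-induced secreted protein, had reads in 4 of 6 PBS, 5 of 7 day 4 and 7 of 8 day 11 libraries. Atf3, a transcription factor downstream of ATF4, had reads in 1 of 6 PBS, 5 of 7 day 4 and 4 of 8 day 11 libraries. Ppp1r15a, the phosphatase subunit that ends translational arrest, averaged 4.49 ± 3.38 CPM under PBS (SD, n = 6), 22.8 ± 31.7 CPM at day 4 (SD, n = 7) and 21.5 ± 11.9 CPM at day 11 (SD, n = 8), with a fitted day 11 value of 2.24 ± 1.45 (adjusted p = 0.78). At day 4 it averaged 3.15 ± 5.53 CPM in cKO mice (SD, n = 4) and 49.1 ± 34.0 CPM in flox mice (SD, n = 3), against 4.26 ± 2.33 CPM in cKO mice and 4.72 ± 4.79 CPM in flox mice under PBS (SD, n = 3 each). The 12 targets of ATF4 had a median of 1.31 at day 11, or 1.03 with the 3 genes that lacked reads in a group set to a floor of 3 counts over the group, and 9 of 12 lay above 0. At day 11 the median was 0.08 in cKO mice, with 7 of 12 above 0. In flox mice it was 2.77 (1.93 with the floor), with 10 of 12 above 0. The difference of these medians was not tested. For cKO against flox the list's median was 1.59 under PBS (0.44 with the floor) and −0.13 at day 11. The interaction at day 11 was fitted for each gene, and 0 of the 12 were called. These genes spread widely between mice, and none passed the test.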

How the data were processed

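The authors deposited, for each library, unscaled estimated counts per gene, as the file headers name them. The submitters' processing notes list the build mm10 and the tools DRAGEN, fastp, Picard and FastQC, with no version or role. The sources used here do not give how strand and duplicates were handled. Of values above 0, 95.2% were whole within 0.005. Of 35598 identifiers, 35513 were matched to GENCODE M21 symbols, those of Pdia6 and Xbp1 without the version suffix.

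Rounded counts went into edgeR (version 4.0.16, under R 4.3.3) with filterByExpr at a minimum count of 10, TMM scaling and the robust quasi-likelihood test. A single model held 6 group means over all 21 libraries, with 15 residual degrees of freedom; the common biological coefficient of variation was 1.66. Calls needed an adjusted p (Benjamini-Hochberg, 13898 genes) under 0.05, and each SE was derived from the log2 fold change and its F statistic. CPM used TMM-scaled library sizes, and log2 CPM a prior count of 2. The labels name 1 mouse per library. Depth and the floor of 3 counts concern counting error only. Alternatives were limma 3.58.1 voom, DESeq2 1.42.0, other scaling, filter, fit and covariates, and libraries left out. The procedure was also run on simulated data, with the spread of these libraries and with a smaller one. Limits on recovery were set only for the smaller spread and abundant genes. That run therefore does not show how well changes can be found in these libraries, and its outcome is not given here. Genes of like level lay within 0.5 log2 CPM. Named genes were the 10 members, up to 4 per pathway list with the smallest day 11 p, and the 5 most like Hspa5 and Ppib by Spearman rho, of which 1 is not reported here; Dnajc3 and Syvn1 were named for their ERSE letters. The members, lists and rules were chosen with earlier results of these data known. Promoters came from RefSeq. Figures used matplotlib 3.10.9 in Python 3.11.15.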

Additional observations from a re-analysis of the deposited data

Results flagged for a closer look

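Among 30 combinations of a gene and a group of 4 libraries, 2 held a library that stood apart from the other 3 by a wide gap relative to the group's range; chance gives about 1 such case in 20 groups. Both were flox day 11 replicate 3. It had 1767 CPM of Hspa5, against 797 to 958 CPM in the other flox day 11 libraries, and 221 CPM of Pdia4, against 86.8 to 98.1 CPM. The same library was among the 3 highest of all 21 for 5 of the 10 genes and had 30.1% of its reads in the ribosomal RNA gene; the part of that share was not tested. Without it, Hspa5 averaged 882 ± 81.0 CPM and Pdia4 92.1 ± 5.68 CPM in flox day 11 mice (SD, n = 3).

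For Pdia3 the day 11 libraries of the genotypes lay on opposite sides of their PBS means. This was looked for in each of the 10 genes at day 4 and at day 11, and the share of all genes that meet it is not given here. The 8 day 11 libraries ran only from 274 to 328 CPM. Each PBS mean rested on 3 libraries, which ran from 283 to 447 CPM in cKO mice and from 193 to 389 CPM in flox mice. On the log2 CPM scale all 4 cKO day 11 libraries lay below the cKO PBS mean, by 0.31 on average (−0.31), and all 4 flox day 11 libraries lay above the flox PBS mean, by 0.13 on average, a difference of −0.44. Neither change passed the test, and the fitted flox change ran from −0.15 to 0.34 with 1 library left out. The interaction term of the fit was −0.40 ± 0.42 (edgeR, adjusted p = 1).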

How the results depend on the processing

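The count of the 10 genes called was 0 in all 14 comparisons under 10 other settings and with each of 21 libraries left out, and the lowest adjusted p was 0.12, for Hsp90b1 in cKO against flox at day 11 by limma voom (log2 fold change 1.24). Over all settings and left-out libraries the median change of the 10 genes ran from −0.0052 to 0.26 for averaged day 11, from 0.020 to 0.23 for averaged day 4 and from 0.11 to 0.27 for averaged genotypes.

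The number of all genes called depended on the tool. It is given in the order cKO day 11 against PBS (7 in edgeR), cKO day 4 against PBS (0), flox day 11 against PBS (0), flox day 4 against PBS (0), averaged day 11 (17), averaged day 4 (3), cKO against flox under PBS (0), at day 4 (0), at day 11 (0) and averaged (1), interaction at day 4 (0) and at day 11 (0), cKO day 11 against day 4 (0) and flox day 11 against day 4 (0). DESeq2 called 640, 793, 1136, 1126, 1164, 1256, 935, 800, 495, 904, 1113, 951, 911 and 567. Voom called 80, 36, 23, 41, 79, 13, 25, 18, 11, 2, 8, 0, 10 and 21. Without the low-count filter the first 10 were 12, 1, 4, 2, 39, 17, 1, 2, 1 and 3, and cKO day 11 against day 4 had 8. Without cKO day 4 replicate 3 and cKO day 11 replicate 3, counts were 13 (cKO day 11), 6 (flox day 11), 1 (flox day 4), 37 (averaged day 11), 17 (averaged day 4) and 1 (PBS genotypes). A fit of the compared groups alone gave 27 for averaged day 11 and 1 each for the genotypes under PBS and at day 11; the covariate of detected genes gave 6 for averaged day 4 and 1 for the genotypes at day 11. The cause of these differences was not tested.

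With 1 library left out, counts ran from 3 to 10 (cKO day 11), 0 to 10 (cKO day 4), 0 to 6 (flox day 11), 0 to 3 (flox day 4), 12 to 30 (averaged day 11), 2 to 16 (averaged day 4), 0 to 2, 0 to 14 and 0 to 1 (genotypes under PBS, at day 4 and at day 11), 1 to 3 (genotypes averaged), 0 to 4 (interaction at day 4) and 0 to 20 (cKO day 11 against day 4).

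Among single genes, none called, signs turned as follows. Averaged day 11: Hsp90b1 0.00482 with DESeq2, 0.00484 with its size factors, 0.0013 without the ribosomal gene, 0.055 without both replicate 3 libraries and −0.26 to 0.11 with 1 library out; Canx −0.073 by voom, −0.11 with a proximal tubule covariate and −0.081 to 0.18; Pdia3 −0.24 to 0.0024. Averaged day 4: Canx −0.015 to 0.22, Pdia3 −0.077 to 0.16 and Pdia4 −0.49 to 0.0040. Averaged genotypes: Calr −0.026 to 0.28, Pdia6 −0.12 to 0.33 and P4hb −0.049 to 0.098. Day 11 against PBS: Calr in cKO −0.016 to 0.80, Hspa5 in flox −0.11 by voom and −0.18 to 0.29, and Pdia3 in flox −0.15 to 0.34.

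No pairing of the mice by replicate number was detected: over 48 pairs of same-numbered libraries the correlation of deviations ran from −0.05 to 0.03, and 0 exceeded 0.1. It was taken over all 13898 genes tested, so a link limited to few genes could go unseen. With the number as a replicate block, 10 genes were called for averaged day 11 and 1 for cKO day 11 against day 4; averaged day 11 changes were 0.084 for Hsp90b1, −0.039 for Canx and −0.19 for Xbp1, and the averaged genotype change of Ppib was −0.016.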
